A study of Mus musculus with 30 samples.

Results

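Cxcl9, Cxcl10 and Cxcl11, the interferon-inducible CXC chemokines, and Cxcr3, the receptor they share, were followed in whole B16 melanomas as 4 genes of the 39676 gene identifiers counted. They were taken by symbol and matched through their Ensembl identifiers, by a rule that uses no measured value, although earlier results of these data were known when they were chosen. The tumors came in 3 types of 10 animals each, harvested on day 8 after subcutaneous engraftment of female C57BL/6 mice, generally 8 to 12 weeks old. B16-GFP tumors carried the empty vector, B16-IFNA4 tumors secreted the type I interferon IFNα4, and B16-IFNA9 tumors secreted IFNα9. All 3 lines were derived from B16-F10, a pigmented mouse melanoma line, and all expressed green fluorescent protein, the herpes simplex virus glycoprotein B with cyan fluorescent protein, and firefly luciferase with puromycin resistance. The interferon was driven by a retroviral long terminal repeat inside the tumor cells, and each type rests on 1 sorted line, so a difference between lines and a difference between interferons cannot be told apart. The hosts were wild-type animals with their own leukocytes.

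CXCL9, CXCL10 and CXCL11 are secreted by myeloid cells, stromal cells and some tumor cells, and they draw in cells that carry CXCR3, a G protein-coupled receptor found mainly on activated and memory T cells and on NK cells. Cxcl9 is known chiefly as a target of interferon-γ, whereas Cxcl10 and Cxcl11 also answer directly to type I interferon. Within tumors this axis is known for the recruitment and positioning of CD8+ T cells. C57BL/6 mice carry a frameshift in Cxcl11, so its transcript can be counted although no intact chemokine is made from it.

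The ligands lie side by side on the minus strand of chromosome 5 (GRCm38, GENCODE M21): Cxcl9 (ENSMUSG00000029417.9) at chr5:92321347-92328079, Cxcl10 (ENSMUSG00000034855.13) at chr5:92346638-92348889, and Cxcl11 (ENSMUSG00000060183.6), annotated as a polymorphic pseudogene, at chr5:92359544-92365485. Cxcr3 (ENSMUSG00000050232.6) lies on the minus strand of the X chromosome at chrX:101731535-101734269 and overlaps no other gene. Cxcl10 and Cxcl11 lie inside Art3, an ADP-ribosyltransferase gene on the plus strand, with 133 exonic bases of Cxcl10 shared with it, and 1582 of the 3794 exonic bases of Cxcl11 are shared with Art3 or the plus-strand pseudogene Gm2673. The libraries keep strand, but the strand setting of the counting is not given in the sources used here. Art3 itself did not pass the test in any comparison (log2 fold changes of 0.27 and -0.02 against B16-GFP, edgeR quasi-likelihood test, adjusted p = 0.0815 and 0.917), and Gm2673 had at most 5 counts in any tumor.

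The 250 bases before the RefSeq start of Cxcl9 and of Cxcl10 (GRCm38.p6, minus strand, chr5:92328080-92328329 and chr5:92348890-92349139) are shown because these genes rose together but to unequal extents. Capitals mark matches, on either strand, to the interferon-stimulated response element (ISRE), searched as GAAA, any 2 bases and GAAA, and to κB letters, searched as GGG, any 4 or any 5 bases and CC, with overlapping matches joined into 1 run.
Cxcl9: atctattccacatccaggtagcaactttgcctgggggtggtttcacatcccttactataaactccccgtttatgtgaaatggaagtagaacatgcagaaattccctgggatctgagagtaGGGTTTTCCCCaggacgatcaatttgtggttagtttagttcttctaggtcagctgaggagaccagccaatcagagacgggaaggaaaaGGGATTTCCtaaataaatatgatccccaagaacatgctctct
Cxcl10: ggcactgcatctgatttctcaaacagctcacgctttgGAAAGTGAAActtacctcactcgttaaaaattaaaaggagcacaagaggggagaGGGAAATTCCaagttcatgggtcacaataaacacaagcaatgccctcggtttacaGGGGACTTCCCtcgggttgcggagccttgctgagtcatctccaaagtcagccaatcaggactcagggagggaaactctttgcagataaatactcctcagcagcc
The ISRE letters stood in the Cxcl10 window, from 213 to 204 bases before the start, and not in that of Cxcl9 or Cxcr3. The RefSeq window of Cxcr3 reaches into the first exon that GENCODE annotates, so it is only in part upstream of that gene model. Of 32851 RefSeq promoter windows of this length, 2.98% held the ISRE letters. The κB letters were matched in all 3 windows, and they are common: 45.8% of all windows held the 10-letter form and 38.7% the 9-letter form. In Cxcl9 they begin 130 and 42 bases before the start, and in Cxcl10 159 and 104 bases before it. The interferon-γ-activated element GAS, searched as TTCNNNGAA, was in none of the 3 windows and in 7.02% of all. CCAAT (33.8% of all windows) was matched in Cxcl9 and Cxcl10, and TATAAA (12.4%) in Cxcl9. Cxcl11 was not in the promoter table.

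The interferon transgenes matched the labels: Ifna4 had 81 to 188 counts in every B16-IFNA4 tumor and 0 in all others, and Ifna9 had 55 to 148 counts in every B16-IFNA9 tumor and 0 in all others. Library totals ran from 14598517 to 19788383 counts. B16-GFP tumor 7 stood apart from the other tumors, with the lowest TMM scaling factor (0.768; the others ran from 0.856 to 1.10), the highest summed level of the melanocyte genes Tyr, Tyrp1 and Mitf in its type (22850 CPM, median of the type 8981 CPM) and the lowest level of the pan-leukocyte gene Ptprc (19.6 CPM). Where leaving it out changed a call of the 4 genes or moved a list's count by over 1.5 times, the value without it is given beside the result or in the closing section. The tumors are bulk tissue, so fewer cells of a type and less RNA per cell cannot be told apart.

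The 3 ligands rose in both interferon-secreting types, with no overlap with B16-GFP in a single tumor. Cxcl9 and Cxcl11 rose by more than an order of magnitude and Cxcl10 by less. Cxcr3 rose too, by far less, and its ranges overlapped. Between B16-IFNA9 and B16-IFNA4, none of the 4 passed the test.

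Cxcl9 (levels in CPM, counts scaled to a common library total after TMM normalization) ran from 9.29 to 53.5 CPM in B16-GFP, with a median of 18.7 CPM and a mean of 23.7 ± 13.3 (SD, n = 10). In B16-IFNA4 it ran from 232 to 569 CPM with a median of 375 (mean 410 ± 124, n = 10). In B16-IFNA9 it ran from 129 to 632 CPM with a median of 320 (mean 359 ± 169, n = 10). The lowest interferon-secreting tumor was thus above the highest B16-GFP tumor, and B16-IFNA9 tumors spread more widely than B16-IFNA4 tumors around a similar middle. The log2 fold change was 4.11 (SE 0.31) in B16-IFNA4, a 17.2-fold rise, and 3.92 (SE 0.31) in B16-IFNA9, a 15.1-fold rise (edgeR quasi-likelihood test, adjusted p = 2.71e-12 and 1.35e-11).

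Cxcl10 ran from 13.1 to 48.8 CPM in B16-GFP, with a median of 24.4 CPM (mean 27.0 ± 11.4, n = 10). It ran from 114 to 256 CPM in B16-IFNA4, with a median of 203 CPM (mean 198 ± 46.9), and from 119 to 298 CPM in B16-IFNA9, with a median of 143 CPM (mean 166 ± 57.5). Cxcl10 was the most evenly expressed of the ligands in both interferon-secreting types, with a coefficient of variation of 23.7% and 34.7%, against 30.2% and 47.1% for Cxcl9. It rose by 2.87 on the log2 scale in B16-IFNA4 (SE 0.22, 7.30-fold, edgeR adjusted p = 2.47e-12) and by 2.61 in B16-IFNA9 (SE 0.22, 6.11-fold, edgeR adjusted p = 3.08e-11).

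Cxcl11, the scarcest of the ligands, was close to the limit of counting in B16-GFP, where 5 to 31 reads per library gave 0.313 to 1.70 CPM with a median of 0.770 CPM. It reached 5.76 to 23.6 CPM in B16-IFNA4 (median 15.2 CPM, 100 to 380 reads) and 5.54 to 16.01 CPM in B16-IFNA9 (median 10.9 CPM, 93 to 268 reads). The log2 fold changes were 4.12 (SE 0.29, 17.4-fold) and 3.68 (SE 0.29, 12.8-fold), with edgeR adjusted p of 5.56e-13 and 1.17e-11. Of its 50-base stretches, the length of a read, 40.4% also occur in another gene on the opposite strand, against 3.59% for Cxcl10, 0.270% for Cxcl9 and none for Cxcr3.

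Cxcr3 ran from 1.97 to 8.75 CPM in B16-GFP, with a median of 4.30 CPM (mean 4.64 ± 1.81, n = 10; 36 to 98 reads per library). In B16-IFNA4 it ran from 6.57 to 14.6 CPM with a median of 10.0 CPM (mean 10.5 ± 2.83), and in B16-IFNA9 from 4.62 to 10.2 CPM with a median of 7.52 CPM (mean 7.56 ± 1.89). Of the B16-IFNA4 tumors 8 lay above every B16-GFP tumor, and of the B16-IFNA9 tumors 4 did. The receptor rose by 1.18 on the log2 scale in B16-IFNA4 (SE 0.20, 2.27-fold, edgeR adjusted p = 6.60e-06) and by 0.71 in B16-IFNA9 (SE 0.20, 1.64-fold, edgeR adjusted p = 0.00296). The highest B16-GFP value, 8.75 CPM, was tumor 7, and without it the log2 rises were 1.34 and 0.86, while those of the ligands moved by less than 0.1.

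**Figure D1:**
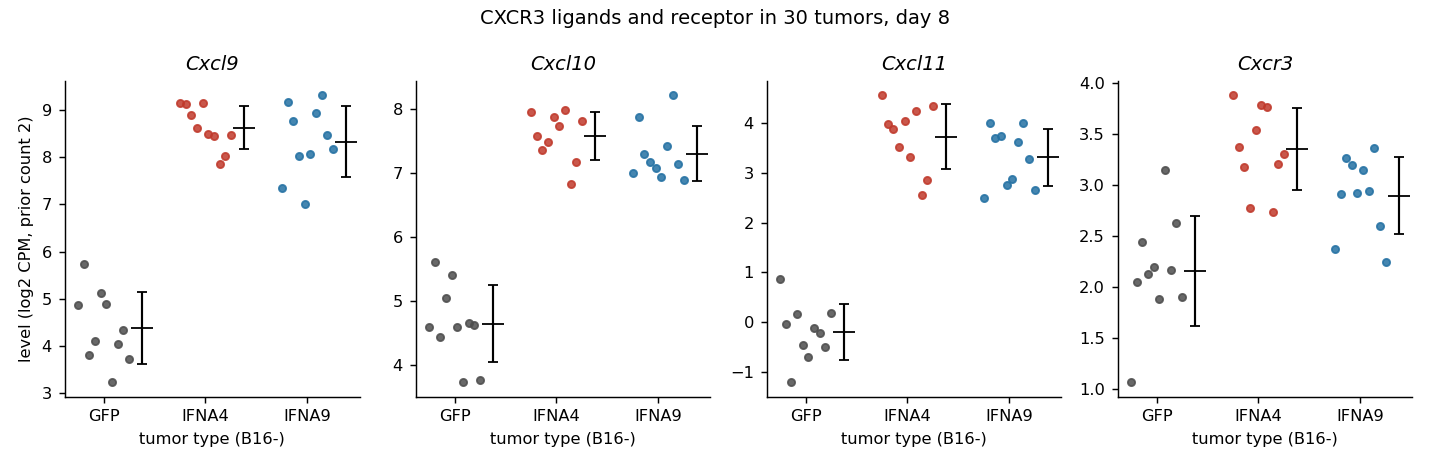
Level of each gene in every tumor (log2 CPM with a prior count of 2; each point is 1 tumor, n = 10 per type, and the black bar shows the mean ± SD). The ligands separate both interferon-secreting types from B16-GFP without overlap, whereas Cxcr3 overlaps and its highest B16-GFP point is tumor 7.

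Set against all 15926 genes tested, all 4 genes were called higher in both comparisons with B16-GFP, where 31.3% of genes were called higher and 34.1% lower in B16-IFNA4 (65.4% in all) and 26.9% higher and 28.9% lower in B16-IFNA9 (55.7% in all). Ranges without overlap were less common, at 8.50% of genes for B16-IFNA4 and 4.44% for B16-IFNA9 on the higher side, and the 3 ligands were among them in both. By size of the log2 fold change in B16-IFNA4, Cxcl11 ranked 55th and Cxcl9 56th from the top, Cxcl10 246th and Cxcr3 1243rd. In B16-IFNA9 the ranks were 35th for Cxcl9, 47th for Cxcl11, 189th for Cxcl10 and 2161st for Cxcr3. These comparisons share the same B16-GFP tumors.

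In B16-IFNA9 against B16-IFNA4, where 17.8% of genes were called (10.5% higher and 7.25% lower), the 4 log2 differences all lay below 0 and none passed the test. They were -0.19 for Cxcl9 (95% interval -0.73 to 0.35, edgeR adjusted p = 0.684), -0.26 for Cxcl10 (-0.65 to 0.14, adjusted p = 0.418), -0.44 for Cxcl11 (-0.92 to 0.03, adjusted p = 0.220) and -0.47 for Cxcr3 (-0.85 to -0.09, adjusted p = 0.0915). The intervals reach well below 0, so the test does not show that the types are alike. The receptor's difference is the one that crossed the threshold under some settings: its adjusted p was 0.0395 without B16-GFP tumor 7 and 0.0342 when only the 20 tumors compared were fitted.

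**Figure D2:**
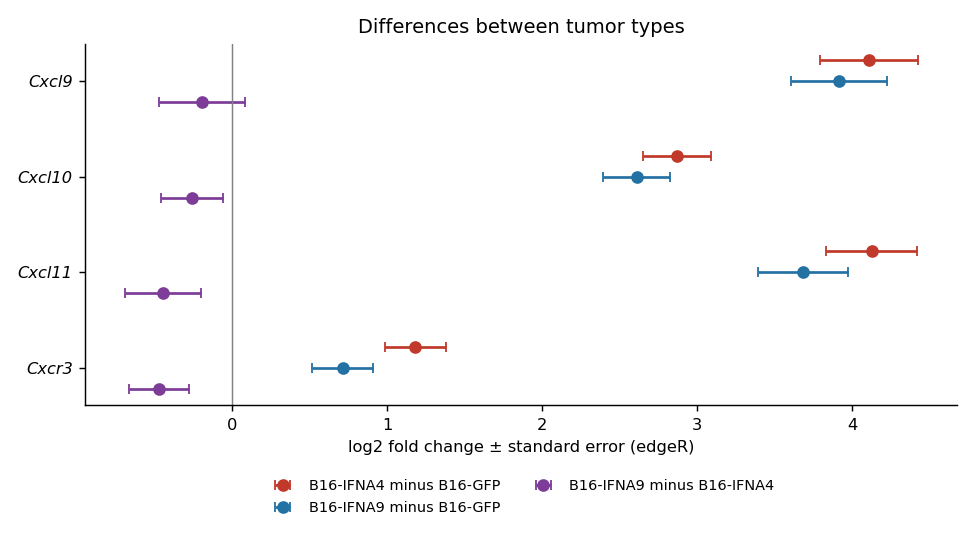
Log2 fold change of each gene in the 3 comparisons (points, with bars of 1 standard error from edgeR; red, B16-IFNA4 minus B16-GFP; blue, B16-IFNA9 minus B16-GFP; purple, B16-IFNA9 minus B16-IFNA4). The ligands rise by 2.61 to 4.12 against B16-GFP, Cxcr3 by 1.18 and 0.71, and the differences between the interferon-secreting types lie between -0.47 and -0.19.

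The balance among the ligands also differed from B16-GFP. Within a tumor, Cxcl9 was below Cxcl10 in B16-GFP by 0.26 ± 0.42 on the log2 CPM scale (SD, n = 10; range -0.94 to 0.30), and above it by 1.03 ± 0.36 in B16-IFNA4 (range 0.44 to 1.54) and by 1.02 ± 0.51 in B16-IFNA9 (range -0.08 to 1.49). On this scale Cxcl9 went from the lesser to the greater of the pair in both types, without overlap in B16-IFNA4 and with 9 of 10 tumors above every B16-GFP tumor in B16-IFNA9. The change was 1.29 (SE 0.18) in B16-IFNA4 and 1.28 (SE 0.21) in B16-IFNA9 (two-sided permutation test, n = 10 per type, adjusted p = 6e-05 and 0.00022 over 12 tests). Between the interferon-secreting types it was -0.01 (SE 0.20, permutation test, adjusted p = 0.948).

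Expressed as shares of the reads of the 3 ligands, Cxcl9 made up 44.7% ± 7.00 in B16-GFP, 65.4% ± 5.59 in B16-IFNA4 and 65.2% ± 8.13 in B16-IFNA9 (SD, n = 10 each). Cxcl10 made up 53.4% ± 7.04, 32.3% ± 5.35 and 32.7% ± 7.95. Cxcl11 stayed a minor share, at 1.86% ± 1.14, 2.26% ± 0.610 and 2.03% ± 0.470. Relative to Cxcl10, Cxcl11 was lower by 4.86 on the log2 CPM scale in B16-GFP, 3.85 in B16-IFNA4 and 3.99 in B16-IFNA9, and both rises passed the test (changes of 1.00 and 0.87, permutation test, adjusted p = 0.00696 and 0.0129).

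Per length, the order of the genes in B16-GFP was Cxcl10, Cxcl9, Cxcr3 and Cxcl11, with mean levels of 12.01 ± 5.07, 7.86 ± 4.42, 2.68 ± 1.05 and 0.214 ± 0.1003 CPM per kilobase of merged exon (SD, n = 10). In B16-IFNA4 the order was Cxcl9 (136 ± 41.0), Cxcl10 (87.8 ± 20.8), Cxcr3 (6.05 ± 1.63) and Cxcl11 (3.79 ± 1.52), and in B16-IFNA9 it was Cxcl9 (119 ± 56.1), Cxcl10 (73.5 ± 25.5), Cxcr3 (4.37 ± 1.09) and Cxcl11 (2.78 ± 1.06). The ranges of Cxcl9 and Cxcl10 overlapped in each type, those of Cxcr3 and Cxcl11 in both interferon-secreting types, and those of Cxcr3 and Cxcl9 in B16-GFP. The order of Cxcl9 and Cxcl10 depends on the length used, since the merged exons of Cxcl10 take in a retained intron. With the coding transcript of 1094 bases for Cxcl10 and 2889 bases for Cxcl9, Cxcl10 was the higher of the pair in each type, at 181 ± 42.9 against 142 ± 42.8 CPM per kilobase in B16-IFNA4. Likewise, with its shorter transcript of 1581 bases Cxcl11 stood at 9.09 ± 3.65 CPM per kilobase in B16-IFNA4, above Cxcr3. The shift between types is the same for either length.

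**Figure D3:**
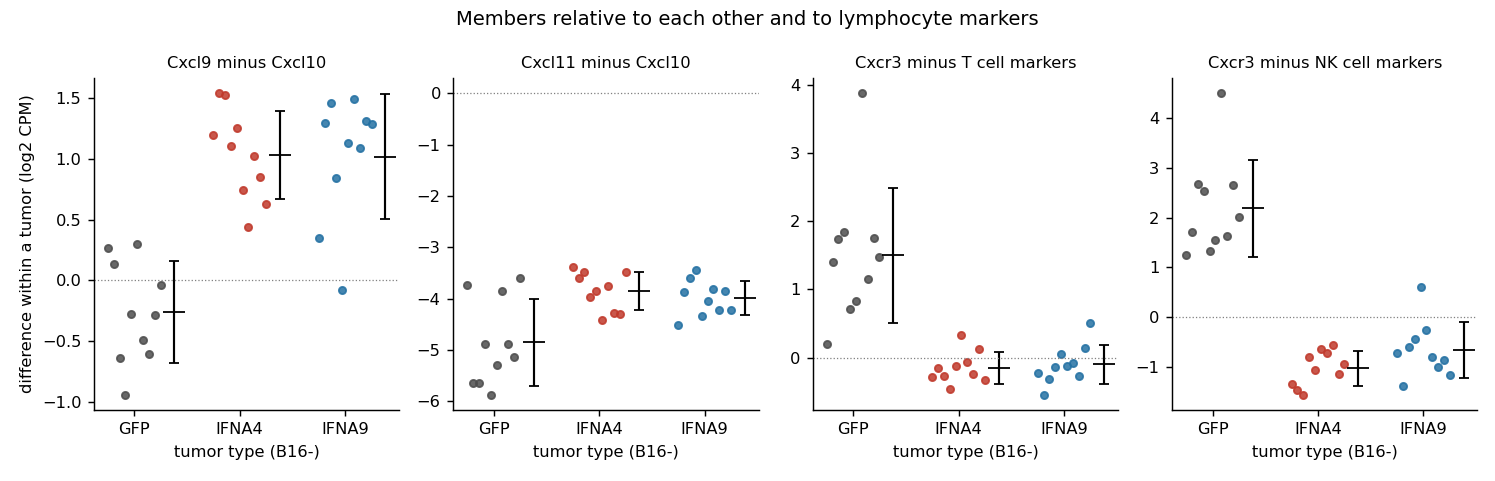
Differences within each tumor on the log2 CPM scale (each point is 1 tumor, n = 10 per type, black bar mean ± SD): Cxcl9 minus Cxcl10, Cxcl11 minus Cxcl10, and Cxcr3 minus the mean of the T cell and of the NK cell markers. Cxcl9 moves above Cxcl10 in both interferon-secreting types, and Cxcr3 is high relative to lymphocyte markers in B16-GFP, most of all in tumor 7 (3.88 and 4.499).

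The tissue around the axis changed at the same time. The list counts here and in the paragraphs on other genes stand against 31.3% of all genes called higher in B16-IFNA4 and 26.9% in B16-IFNA9, and, between these types, 10.5% called higher and 7.25% lower in B16-IFNA9. Of 11 T cell markers tested, 11 rose in B16-IFNA4 and 10 in B16-IFNA9, with median log2 fold changes of 2.77 and 2.30 against 0.01 and -0.00311 over all genes. Examples were Cd28 (3.54) and Cd8a (3.36) in B16-IFNA4, and Cd8b1 (3.04) and Cd8a (2.99) in B16-IFNA9, while Cd3e, of the T cell receptor complex, rose by 2.11 and 1.98. Cd4 had a log2 fold change of 0.66 in B16-IFNA9 (edgeR adjusted p = 0.244), where 1 B16-GFP tumor, tumor 8, stood at 46.5 CPM against a median of 2.92 CPM in its type. Cd4 was called higher without that tumor (1.98, edgeR adjusted p = 9.35e-07) and, over all tumors, with the replicate block (1.48, edgeR adjusted p = 0.00782). DESeq2 also called it higher (1.61, adjusted p = 6.16e-07), and how DESeq2 treated the count of tumor 8 was not examined. All 8 NK cell markers rose in both types (median 4.55 and 3.85), among them the activating receptor Ncr1 (4.66 and 4.14). Between the interferon-secreting types, 6 of the 8 were lower in B16-IFNA9 than in B16-IFNA4, with the largest differences for Klra4 (-1.25) and Klra8 (-0.91). The call of Klra8 (edgeR adjusted p = 0.0390) was lost with the replicate block (-0.87, edgeR adjusted p = 0.0856). Summed over the list, T cell markers ran from 8.48 to 68.3 CPM in B16-GFP (the highest was tumor 8, and the next highest 36.1 CPM), from 104 to 237 in B16-IFNA4 and from 48.4 to 160 in B16-IFNA9, and NK cell markers from 2.59 to 14.5, from 80.1 to 309 and from 39.8 to 168 CPM. No marker of either list was at 0 in every tumor of a type. Ptprc, the pan-leukocyte gene CD45, rose by 2.65 and 2.14. The part of these markers in the rise of the ligands and the receptor was not tested.

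Relative to those markers, Cxcr3 was lower in the interferon-secreting types than in B16-GFP. Its log2 CPM minus the mean of the T cell markers was 1.50 ± 0.99 in B16-GFP (range 0.20 to 3.88), -0.15 ± 0.23 in B16-IFNA4 (range -0.47 to 0.33) and -0.10 ± 0.29 in B16-IFNA9 (range -0.55 to 0.51). In each interferon-secreting type, 9 of 10 tumors lay below every B16-GFP tumor. The changes were -1.65 (SE 0.32) and -1.60 (SE 0.33), with adjusted p of 6e-05 and 7.2e-05 by permutation test, and without B16-GFP tumor 7 they were -1.38 and -1.34. Against the mean of the NK cell markers the receptor stood at 2.19 ± 0.97, -1.02 ± 0.35 and -0.66 ± 0.55, without overlap with B16-GFP, and the changes were -3.21 (SE 0.33) and -2.85 (SE 0.35), each with an adjusted p of 6e-05 by permutation test (-2.96 and -2.59 without B16-GFP tumor 7). B16-IFNA9 and B16-IFNA4 differed by 0.05 (SE 0.12, adjusted p = 0.757) and 0.36 (SE 0.21, adjusted p = 0.121) by the same permutation test. The melanocyte genes Tyr, Tyrp1 and Mitf fell in both types, 3 of 3, with median log2 fold changes of -1.24 and -0.97. Their summed level ran from 7224 to 22850 CPM in B16-GFP, from 2160 to 3635 in B16-IFNA4 and from 3371 to 8928 in B16-IFNA9, and their part in the receptor's level was not tested.

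Markers of cell types that can make the ligands were counted in the same way. Of 9 monocyte and macrophage markers, 5 rose in each type, with the largest rises for Ly6c2 (3.24 and 2.35) and the Fc receptor gene Fcgr1 (2.55 and 1.70). Other macrophage genes of the list had log2 fold changes below 0 in B16-IFNA4, at -0.44 for C1qa, -0.35 for C1qb and -0.28 for Csf1r (edgeR adjusted p = 0.0542, 0.114 and 0.177). Without B16-GFP tumor 7 these 3 were called lower (-0.52, -0.44 and -0.38, edgeR adjusted p = 0.0151, 0.0172 and 0.00973). The summed list ran from 371 to 1616 CPM in B16-GFP, 1446 to 2622 in B16-IFNA4 and 1180 to 1948 in B16-IFNA9. Of 10 dendritic cell markers, 5 rose in B16-IFNA4, and in B16-IFNA9 7 rose and Fscn1 fell (-0.61). Xcr1, which marks conventional type 1 dendritic cells, rose by 1.39 and 2.08. Of 6 endothelial markers 4 fell in each type, where 34.1% of all genes were called lower in B16-IFNA4 and 28.9% in B16-IFNA9 (Emcn by -1.32 and -1.71, Tie1 by -0.97 and -1.58), and in B16-IFNA4 Kdr rose (1.35). Of 5 fibroblast markers, Pdgfrb (0.41) and Col1a2 (0.49) rose in B16-IFNA4 and Pdgfra (0.54) in B16-IFNA9, shares near or below the background.

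Genes that act on these ligands, and the chemokine gene Pf4 listed with them, moved little in comparison. Dpp4, a protease that trims the ligands, rose by 0.84 and 0.75, and the scavenging receptor gene Ackr3, which takes up CXCL11, rose by 0.81 and 0.43. Ackr1, a decoy receptor of endothelium and red cells, rose in B16-IFNA4 (0.77) and had a log2 fold change of 0.32 in B16-IFNA9 (edgeR adjusted p = 0.103). Pf4, the platelet chemokine CXCL4, had log2 fold changes of -0.38 and -0.35 (edgeR adjusted p = 0.0568 and 0.0869), and was called lower in both without B16-GFP tumor 7 (-0.43 and -0.41, edgeR adjusted p = 0.0313 and 0.0440). Of these 4 genes 3 rose in B16-IFNA4 and 2 in B16-IFNA9 (31.3% and 26.9% of all genes). Between B16-IFNA9 and B16-IFNA4 none was called, and without B16-GFP tumor 7 Ackr1 and Ackr3 were lower in B16-IFNA9 (-0.47 and -0.40, edgeR adjusted p = 0.0166 and 0.00989), as they were with DESeq2, with its size factors in edgeR, and in the fit of only the 20 tumors compared (edgeR adjusted p = 0.0102 and 0.000225). Of 6 other CXC ligands tested, Cxcl16, the ligand of CXCR6, rose (1.11 and 0.79), Cxcl5 fell (-1.60 and -1.11), and Cxcl2 fell in B16-IFNA9 (-0.94). Cxcl13 had a log2 fold change of -0.66 in B16-IFNA4 (edgeR adjusted p = 0.326), with B16-GFP tumor 8 at 259 CPM against a median of 9.98 CPM in its type. DESeq2 called Cxcl13 higher (1.00, adjusted p = 0.0053), and how DESeq2 treated the count of tumor 8 was not examined. The steep rise was therefore seen in Cxcl9, Cxcl10 and Cxcl11 and in none of those 6 tested CXC ligands by edgeR.

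Among 10 other lymphocyte chemokine receptors, 8 rose in B16-IFNA4 and 7 in B16-IFNA9 (31.3% and 26.9% of all genes), with medians of 1.13 and 0.83. Cxcr3 thus sat close to the middle of them in B16-IFNA4, at 1.18, and just under it in B16-IFNA9, at 0.71. Cxcr6, of effector T cells, rose by 2.26 and 2.19. In B16-IFNA9 against B16-IFNA4, 2 of the 10 were lower (7.25% of all genes), Cxcr4 (-0.88, edgeR adjusted p = 0.00047) and Ccr9 (-0.71, edgeR adjusted p = 0.012).

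Other interferon-responsive genes rose too. All 22 type I interferon-stimulated genes tested rose in both types, led by Ifi44 (4.33 and 3.79), with Mx1 at 4.25 in B16-IFNA4 and Ifit3 at 3.45 in B16-IFNA9, and 11 of them were lower in B16-IFNA9 than in B16-IFNA4 (Mx1 by -1.22, Mx2 by -1.01). Without B16-GFP tumor 7 that count was 18. Of 8 genes of interferon-γ signalling and its targets, 6 rose in B16-IFNA4, and in B16-IFNA9 5 rose and the receptor subunit gene Ifngr2 fell (-0.19), a call lost with library totals in place of TMM (-0.09, edgeR adjusted p = 0.254). Cd274, encoding PD-L1, rose by 2.72 and 3.18. Irf1, an interferon-induced transcription factor gene, rose by 1.67 and 2.52 and was higher in B16-IFNA9 than in B16-IFNA4 (0.85, edgeR adjusted p = 0.00795), as was Nos2 (1.04, edgeR adjusted p = 0.0449). The call of Nos2 was lost with the replicate block (1.00, edgeR adjusted p = 0.112) and with no filter on low counts (1.03, edgeR adjusted p = 0.0617). Ifngr2 was lower in B16-IFNA9 than in B16-IFNA4 (-0.30, edgeR adjusted p = 0.000313). The ligands had log2 differences of -0.19 to -0.44 between the same types, none past the test.

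Of 10 genes of the type 1 lymphocyte programme, 9 rose in B16-IFNA4 and 8 in B16-IFNA9 (31.3% and 26.9% of all genes). Tbx21, encoding T-bet, the transcription factor that switches on Cxcr3 in lymphocytes, rose by 4.35 and 3.43, and was lower in B16-IFNA9 than in B16-IFNA4 (-0.92, edgeR adjusted p = 0.0126). Eomes, its relative, rose by 3.41 in B16-IFNA4, and Il12rb1, a subunit of the interleukin-12 receptor, by 3.22 in B16-IFNA9. Il12rb1 was higher in B16-IFNA9 than in B16-IFNA4 (1.03), and 3 of the 10 were lower (7.25% of all genes), Il15 (-0.63) and Il18 (-0.37) beside Tbx21. That count was 6 in the fit of only the 20 tumors compared and 5 with DESeq2, and the call of Il18 (edgeR adjusted p = 0.0310) was lost with library totals, with no filter and with the replicate block (edgeR adjusted p = 0.0643, 0.0535 and 0.0539). The rise of Tbx21 was thus several times that of Cxcr3 on the log2 scale.

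Around the ligand cluster, the annotation holds 17 other genes within 200 kilobases on either side, of which 13 were among the counted genes and 8 were tested. None of the 8 rose by more than 0.91 on the log2 scale. In B16-IFNA4 Naaa (0.40) and Scarb2 (0.46) were higher and Sdad1 (-0.19) lower, and in B16-IFNA9 Naaa (0.91), Scarb2 (0.33) and Uso1 (0.20) were higher. Nup54, Ppef2, Gm15710 and Art3 did not pass the test against B16-GFP in either type.

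Whether ligands and receptor rise together from tumor to tumor was examined within each type, over 10 tumors, with no correlation taken across types. Of 9 relations between a ligand and Cxcr3, 1 passed: Cxcl10 with Cxcr3 in B16-IFNA4 (Pearson's r = 0.80, permutation p = 0.00486, adjusted p = 0.0437; Spearman's rho = 0.83, permutation p = 0.00467, adjusted p = 0.0420; r = 0.77 without the 2 tumors farthest from the median of Cxcl10). In 7 of 10 repeats with 1 tumor left out, r stayed between 0.71 and 0.82 but the adjusted p exceeded 0.05, reaching 0.148 without tumor 8. The other B16-IFNA4 values were 0.47 for Cxcl9 and 0.61 for Cxcl11 (adjusted permutation p = 0.217 and 0.176; rho 0.48 and 0.61).

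In B16-IFNA9, r with Cxcr3 was 0.40 for Cxcl9, 0.53 for Cxcl10 and 0.69 for Cxcl11 (adjusted permutation p = 0.277, 0.176 and 0.148; rho 0.35, 0.59 and 0.64). The highest of these fell to 0.34 without the 2 tumors farthest from the median of Cxcl11. In B16-GFP, r lay below 0 for all ligands, at -0.52, -0.26 and -0.55 (adjusted permutation p = 0.176, 0.472 and 0.176; rho -0.41, -0.13 and -0.49). Without tumor 7, whose Cxcr3 was the highest and whose Cxcl9 and Cxcl10 were the lowest of the type, these were -0.28, 0.12 and -0.76. Differences in r between types were not tested.

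**Figure D4:**
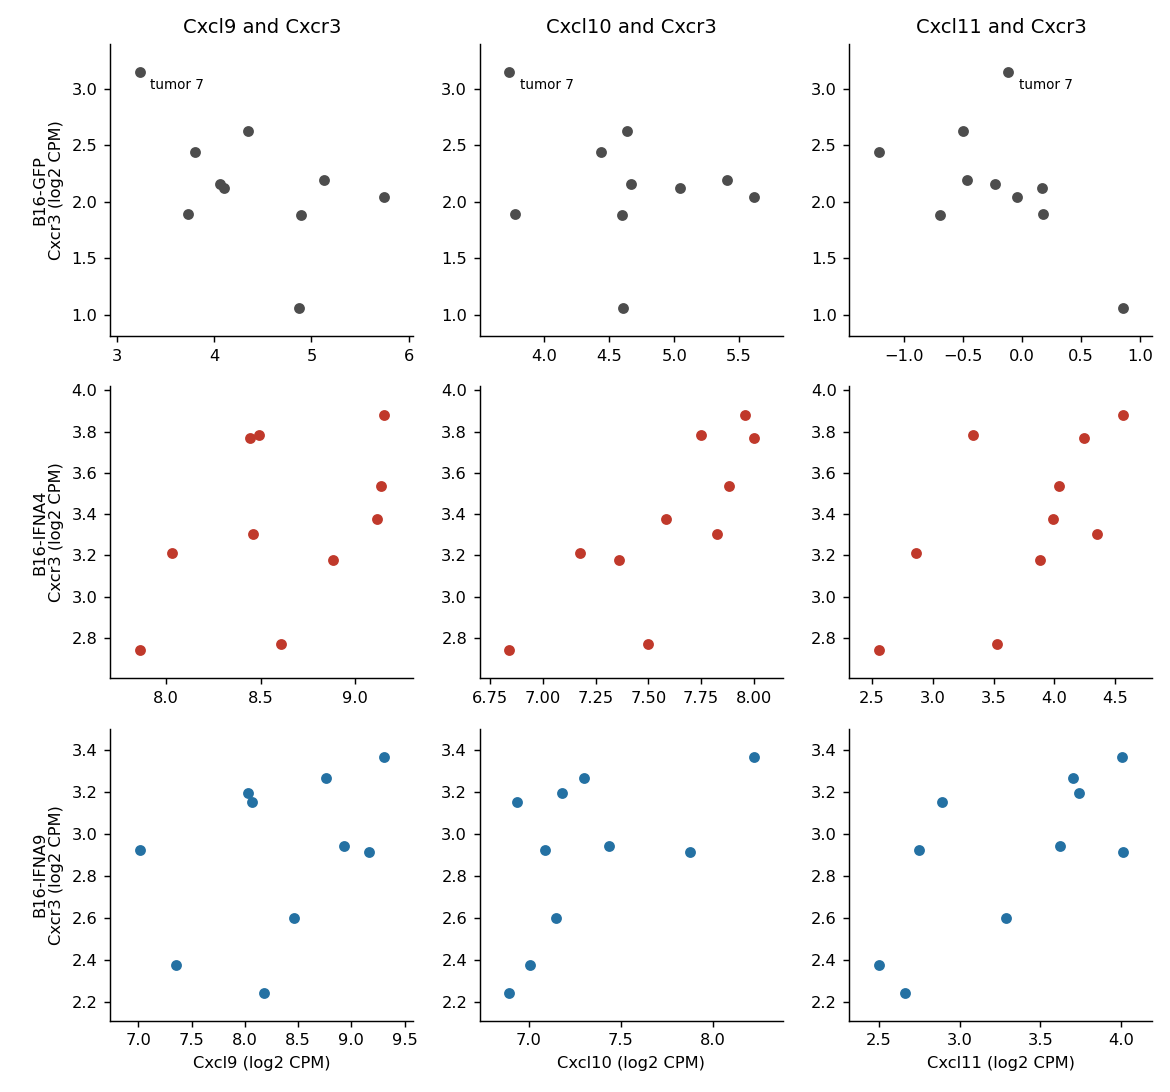
Cxcr3 against each ligand within each type (log2 CPM, each point is 1 tumor, 10 per panel; axes differ between panels). Points climb together in the B16-IFNA4 panel of Cxcl10 (r = 0.80), and B16-GFP tumor 7 sits at the upper left of the Cxcl9 and Cxcl10 panels.

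Of 9 relations between a pair of ligands, 6 passed. In B16-IFNA9 all 3 pairs passed, with r = 0.76 for Cxcl9 with Cxcl10 (adjusted permutation p = 0.0174; rho 0.76), 0.83 for Cxcl9 with Cxcl11 (0.00763; rho 0.72) and 0.81 for Cxcl10 with Cxcl11 (0.00643; rho 0.88), and r of 0.79 to 0.82 without the 2 tumors farthest from the median. In B16-IFNA4 the same pairs gave 0.63, 0.76 and 0.87 (adjusted permutation p = 0.0657, 0.0174 and 0.00643; rho 0.45, 0.58 and 0.85), and without the 2 farthest tumors 0.26, 0.52 and 0.57. In B16-GFP, Cxcl9 and Cxcl10 rose together (r = 0.84, adjusted permutation p = 0.00763, rho 0.77; 0.62 without tumors 2 and 7), whereas Cxcl11, at 5 to 31 reads, gave r of 0.12 and -0.04 with them (adjusted permutation p = 0.850 and 0.921).

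Relations with 6 other measures were taken in the same way, 72 in all: Ptprc, and the mean log2 CPM of type I interferon-stimulated genes, T cell markers, NK cell markers, monocyte and macrophage markers and the interferon-γ genes. In B16-GFP 0 of 24 passed, in B16-IFNA4 15 of 24 and in B16-IFNA9 13 of 24, of which 11 and 12 passed with Spearman's rho as well. All 48 in the interferon-secreting types lay above 0. All of these measures come from the same libraries.

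In B16-IFNA9, by Pearson's r, Cxcr3 and Cxcl11 passed the test with T cell markers, and all 3 ligands passed with NK cell markers. By rho, Cxcl10 also passed with T cell markers (0.76, adjusted permutation p = 0.0439), where r was 0.63 (0.0952). Cxcr3 passed by rho with monocyte and macrophage markers (0.81, adjusted permutation p = 0.0256), where r was 0.70 (0.0518). Cxcr3 followed the T cell markers (r = 0.92, permutation p = 0.00016, adjusted p = 0.00230; rho 0.87, adjusted p = 0.0142; 0.88 without the 2 farthest tumors), and its r with the NK cell markers was 0.42 (adjusted permutation p = 0.297; rho 0.54). Cxcl9 followed the NK cell markers (r = 0.94, permutation p = 1e-05, the smallest the resamples can give, adjusted p = 0.00072; rho 0.92; 0.90 without the 2 farthest tumors), and its r with the T cell markers was 0.44 (adjusted permutation p = 0.261; rho 0.54). Cxcl10 and Cxcl11 followed the NK cell markers with r = 0.75 and 0.83 (adjusted permutation p = 0.0376 and 0.00864; rho 0.87 and 0.89). Without the 2 farthest tumors these r were 0.45 and 0.90. Cxcl11 followed the T cell markers with r = 0.73 (adjusted permutation p = 0.0393; rho 0.82; 0.60 without the 2 farthest tumors). Cxcl9 also followed the interferon-γ genes (r = 0.93, adjusted permutation p = 0.00252; rho 0.90) and the type I interferon-stimulated genes (r = 0.87, adjusted permutation p = 0.00965, rho 0.84). With Ptprc its r was 0.83 (adjusted permutation p = 0.0116, rho 0.68 with adjusted p = 0.0808). Cxcl10 and Cxcl11 passed with both lists, at r = 0.81 and 0.82, and 0.77 and 0.84 (adjusted permutation p from 0.0116 to 0.0229). Cxcl11 also followed Ptprc (r = 0.82, adjusted permutation p = 0.0116). Whether these correlations differ from one another was not tested.

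In B16-IFNA4 Cxcr3 followed the T cell markers (r = 0.81, adjusted permutation p = 0.0161; rho 0.83; 0.71 without the 2 farthest tumors) and, by Pearson's r, the NK cell markers (r = 0.80, adjusted permutation p = 0.0187; rho 0.65, adjusted p = 0.104; 0.38 without the 2 farthest tumors). With the monocyte and macrophage markers Cxcr3 passed by rho only (0.78, adjusted permutation p = 0.0336), where r was 0.69 (0.0518). Cxcl9 passed by r with Ptprc (0.81), the type I interferon-stimulated genes (0.82), the NK cell markers (0.74) and the interferon-γ genes (0.73). The adjusted permutation p ran from 0.0161 to 0.0416, and only Ptprc and the NK cell markers also passed by rho. Without the 2 farthest tumors these r ran from 0.44 to 0.64. Cxcl11 followed the type I interferon-stimulated genes most closely (r = 0.96, adjusted permutation p = 0.00072; rho 0.87; 0.92 without the 2 farthest tumors) and the T cell markers (r = 0.92, adjusted permutation p = 0.00168; rho 0.93). Cxcl10 followed the interferon-γ genes (r = 0.92, adjusted permutation p = 0.00230; rho 0.88; 0.70 without the 2 farthest tumors) and the T cell markers (r = 0.88, adjusted permutation p = 0.00453; rho 0.96). It also followed the type I interferon-stimulated genes (r = 0.80, adjusted permutation p = 0.0181, rho 0.81), with 0.37 without the 2 farthest tumors. Both Cxcl10 and Cxcl11 followed the monocyte and macrophage markers (r = 0.77 and 0.84, adjusted permutation p = 0.0265 and 0.0116, rho 0.87 and 0.93). Cxcl11 also passed with the interferon-γ genes (r = 0.89, adjusted permutation p = 0.00711) and Ptprc (r = 0.80, adjusted permutation p = 0.0172). In B16-GFP the r of Cxcr3 with these measures ran from -0.65 to -0.29, and without tumors 1 and 7 from -0.19 to 0.84, above 0 for all but the NK cell markers.

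**Figure D5:**
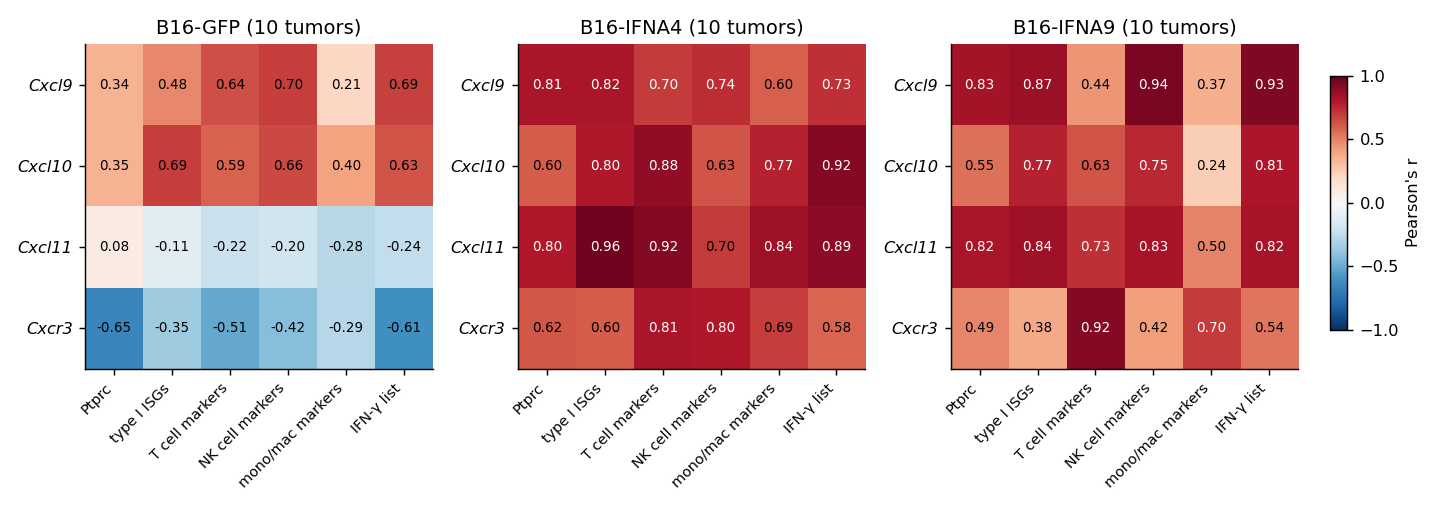
Pearson's r of each gene (rows) with Ptprc and 5 gene lists (columns) within each type, over 10 tumors of log2 CPM (red above 0, blue below 0). All r in B16-IFNA4 and B16-IFNA9 lie above 0, from 0.58 to 0.96 and from 0.24 to 0.94, while in B16-GFP those of Cxcr3 lie below 0.

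The genes whose deviations from the type means were most like those of each member over the 30 tumors (Pearson's r of log2 CPM, given without a test, since all points share libraries) differed from member to member. For Cxcl9 they were Gbp2, an interferon-inducible guanylate-binding protein gene (r = 0.93), Tgtp2 (0.91), Tgtp1 (0.91), the GTPase gene Irgm1 (0.91) and Gbp10 (0.90). Tgtp1 and Tgtp2 are near-identical copies whose reads may be split. For Cxcl10 they were the transcription factor genes Batf2 (0.92) and Irf1 (0.87), the peptide transporter gene Tap1 (0.86), Gimap7 (0.85) and the GTPase gene Ifi47 (0.85). For Cxcl11 the likeness was weaker, at 0.73 for Tox4, 0.72 for Tifa, Gna13 and the pseudogene Gm4759, and 0.72 for Ifit2, whose r was 0.97 in B16-IFNA9 and 0.17 in B16-GFP. Without B16-GFP tumor 7 Gm4759 ranked 2nd, and Tox4, Gna13, Ifit2 and Tifa ranked 14th, 21st, 22nd and 23rd, with r of 0.72 to 0.74.

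For Cxcr3 the 5 genes were Rab8a, a vesicle-traffic GTPase gene (r = 0.84), Batf, a transcription factor gene of effector lymphocytes (0.83), Ptms (0.77), the pro-apoptotic gene Bak1 (0.76) and the actin-binding gene Cotl1 (0.76). Without B16-GFP tumor 7, Rab8a and Batf stayed first and second (0.82 and 0.80), while Bak1 and Cotl1 moved to 15th and 17th. None of the ligands was near the top of this list. Over the same deviations the ligand pairs reached 0.76 (Cxcl9 with Cxcl10), 0.53 (Cxcl9 with Cxcl11) and 0.46 (Cxcl10 with Cxcl11), and Cxcr3 reached -0.02 with Cxcl9, 0.19 with Cxcl10 and 0.18 with Cxcl11. Without B16-GFP tumor 7 the values of Cxcr3 were 0.17, 0.44 and 0.18.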

How the data were processed

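RNA from 30 whole tumors was sequenced by the authors as single-end 50-base reads of stranded mRNA libraries. Per the labels, reads were checked with FastQC (0.11.3) and aligned to mm10 with HISAT2 (2.0.4). The study's methods name another build, so coordinates here are those of GENCODE M21 on GRCm38, matched by Ensembl identifier (39495 of 39676 found). The deposited values are raw counts per gene, counted with summarizeOverlaps. The annotation and strand setting are not given in the sources used here. Wrongly stranded or ambiguous reads would bear mainly on Cxcl11.

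All 30 tumors entered 1 edgeR (4.0.16, R 4.3.3) quasi-likelihood fit after TMM scaling, with genes of a mean of at least 10 counts (15926 genes) and Benjamini-Hochberg adjustment over them, called at 0.05. All 4 genes passed the filter. Intervals are 95% intervals from the standard error. Correlations and within-tumor differences used log2 CPM with a prior count of 2 and two-sided permutation tests of 100000 resamples (20000 where 1 tumor was left out of a difference), in Python 3.11.15 with scipy 1.17.1. DESeq2 (1.42.0) and other scalings, filters and prior counts were alternatives. The fit was tested on simulated data.

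The 4 genes and all lists were chosen with earlier results of these data known. The lists are ligand handling, other CXC ligands, other lymphocyte chemokine receptors, interferon-γ signalling and targets, the type 1 lymphocyte programme, type I interferon-stimulated genes, and markers of T cells, NK cells, monocytes and macrophages, dendritic cells, endothelium, fibroblasts, melanocytes and leukocytes. From each list, the 2 largest rises and falls among called genes could be named, with Irf1, Tbx21, Pf4, Dpp4, Ackr1, Ackr3, Cd3e, Cd8a, Ncr1 and Ptprc, the cluster's neighbours, and the 5 genes most like each member. Cd4, Xcr1 in B16-IFNA4, C1qa, C1qb, Csf1r, Cxcl13, Il18 and the transcript lengths were added after their values were seen, as were relations with melanocyte genes. Ifng and some other listed genes are not analysed here, and some listed genes are not reported here. The mean of the interferon-γ list took the planned place of Ifng. No pair of libraries was identical. The p-values measure the spread between animals engrafted with 1 line per type.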

Additional observations from a re-analysis of the deposited data

Results flagged for a closer look

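B16-GFP tumor 7 was far from the other tumors of its type in Cxcr3 relative to lymphocyte markers. Its Cxcr3 minus the mean of the T cell markers was 3.88 on the log2 CPM scale, where the other 9 tumors ran from 0.20 to 1.85, and its Cxcr3 minus the mean of the NK cell markers was 4.499, where the others ran from 1.25 to 2.67. The gap to the nearest tumor was 55.1% and 56.2% of the whole range. Of 24 groups of values examined these 2 stood out, and chance alone gives about 1.2. Both rest on the same tumor, in which 98 reads of Cxcr3 stood beside summed levels of 8.48 CPM for 11 T cell markers and 2.59 CPM for 8 NK cell markers, the lowest of the type, and 22850 CPM for 3 melanocyte genes, the highest.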

How the results depend on the processing

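The rises of all 4 genes against B16-GFP kept their direction and passed the test under every setting tried: both other scalings, both other filters, DESeq2, fits of only the tumors compared, the replicate block and each of 30 repeats without 1 tumor. The call of Cxcr3 in B16-IFNA9 minus B16-IFNA4 changed: -0.47 (adjusted p = 0.0342) in the fit of only the 20 tumors compared, and -0.48 (adjusted p = 0.0395) without B16-GFP tumor 7, with values from -0.53 to -0.39 over all repeats without 1 tumor. The genes called in that comparison numbered 4332 in the fit of 20 tumors, against 2833. The cause was not tested.

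Without 1 tumor at a time, r of Cxcl10 with Cxcr3 in B16-IFNA4 ran from 0.71 to 0.89 and missed the threshold in 7 of 10 repeats, those without tumor 1, 2, 3, 5, 6, 7 or 8. In the same type r of Cxcl9 with Cxcl11 ran from 0.62 to 0.85 and missed it without tumor 1, 8 or 9, with rho of 0.58 (adjusted p = 0.134, permutation test), and r of Cxcl9 with Cxcl10 ran from 0.38 to 0.75 and passed without tumor 3 (0.70) or 7 (0.75). Cxcr3 minus NK cell markers, B16-IFNA9 minus B16-IFNA4, ran from 0.22 to 0.44 and passed without B16-IFNA9 tumor 2 (0.44, adjusted p = 0.0439, permutation test). The per-kilobase log2 ratio of Cxcl9 to Cxcl10 turned with the coding transcript's length, from 0.61 to -0.37 in B16-IFNA4 and from 0.60 to -0.38 in B16-IFNA9, and went from -0.68 to -1.66 in B16-GFP. This alternative was chosen after seeing the data.

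The counts of called genes per list moved by over 1.5 times in 27 of 588 values under other settings and in 86 of 2520 without 1 tumor. Without B16-GFP tumor 7, 18 interferon-stimulated genes were lower in B16-IFNA9 than in B16-IFNA4, against 11, and 1 other CXC ligand was called lower in that comparison, against 0, as were 2 T cell markers, against 1, and 2 interferon-γ genes, against 1, and Ptprc (-0.53, edgeR adjusted p = 0.0294). In the fit of 20 tumors 18 interferon-stimulated genes, 6 genes of the type 1 programme and 3 T cell markers were lower, against 11, 3 and 1. In B16-IFNA9 2 fibroblast markers were higher with DESeq2, library totals or the block, against 1. Library totals in place of TMM shifted the median of all genes to 0.09 and 0.10 against B16-GFP, and 5052 genes were then called higher and 3608 lower in B16-IFNA9, against 4281 and 4595. Depth limits Cxcl11 in B16-GFP, at 5 to 31 reads.

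Replicate numbers did not pair the tumors: the correlation of same-numbered tumors ran from -0.27 to 0.30, with 4 of 30 over 0.1, and 2 of 30 correlated best with their own number. With the replicate block the log2 fold changes were 4.19, 2.95, 4.13 and 1.22 for Cxcl9, Cxcl10, Cxcl11 and Cxcr3 in B16-IFNA4 and 4.00, 2.64, 3.74 and 0.74 in B16-IFNA9, with no call of the 4 genes changed, and 10249, 8626 and 2535 genes were called in the 3 comparisons.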

Other observations

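The 3 melanocyte genes were set against each member within types, a family of 12 relations chosen after values were seen. In B16-IFNA9 Cxcr3 had r = -0.74 with them (permutation p = 0.00989, adjusted p = 0.119; rho -0.70), and -0.57 without the 2 farthest tumors. In B16-GFP its r was 0.52 (adjusted permutation p = 0.358; rho 0.04), and -0.45 without tumors 1 and 7, the lowest and highest in Cxcr3. In B16-IFNA4 it was 0.12 (adjusted permutation p = 0.740; rho 0.02). None of the 12 passed the adjusted threshold.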
